A study of Mus musculus with 5 samples.

Results

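Control immunoglobulin (Ig) of goat and of rabbit was used to precipitate chromatin of Th9 cells, and the summits of the peaks called in these ChIP-Seq libraries are described here. All rows of both deposited lists were taken, on every sequence to which they were mapped. The goat Ig list held 226 summits and the rabbit Ig list 224, together 450 of the 38651 summits in the 5 lists of the series. A summit is the single base at which a peak is highest. A goat summit with a rabbit summit within 500 bp was called shared, and likewise for a rabbit summit with a goat summit within that distance. The others were called goat-only or rabbit-only. This rule used the positions of both Ig lists and no score, gene, repeat or Input summit.

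The libraries came from naive CD4 T cells of wild-type C57/Bl6j mice aged 7 weeks that were cultured on CD3/CD28-coated plates and turned towards Th9 cells with IL-4 at 20 ng/ml and TGF-β at 2 ng/ml, with IFNγ blocked by an antibody. The labels give 300000 cells for the chromatin and a culture of a few hours. The methods of the study give a higher cell number for ChIP-Seq, and a figure legend gives a longer differentiation. The other 3 libraries are PU.1, BATF and the Input, which is sheared chromatin sequenced with no antibody. All 5 libraries share the cells' genotype and culture, and there was 1 library each, so no difference between goat and rabbit Ig has a replicate check and no p-value is given. The titles of the Ig samples read as Ig anti goat and Ig anti rabbit, whereas the antibody list of the study names control Ig of each species; they are called goat Ig and rabbit Ig below. Both antibodies used for PU.1 and BATF were raised in rabbit. The lists hold no read totals, so depth is unknown, and a short list and a shallow library cannot be told apart.

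An Ig control has no chosen target in chromatin. It is sequenced to show which places give peaks without a specific antibody. Mouse chromosomes hold long tandem arrays that are collapsed or mostly absent in the reference: the major satellite around the centromere, the minor satellite at the centromere itself, where the protein CENP-B binds a short box, and TTAGGG repeats at the telomeres. Reads from many copies of such an array can be piled onto the few copies that a reference has.

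The sequences below are those on which the comparison turns. They were read from GRCm38 (mm10) at goat or rabbit Ig summits and are printed 5′ to 3′ on the strand named. The first pair are minor satellite windows at shared summits with some of the highest scores, with the core of the CENP-B box in capitals. The first, chr6:103649133-103649252 on the minus strand, lies in an intron of Chl1, a neural cell adhesion gene. The second, chr9:24542036-24542155 on the plus strand, is intergenic, 14951 bp from Dpy19l2, a gene known for its role in sperm head formation.
minor satellite in Chl1: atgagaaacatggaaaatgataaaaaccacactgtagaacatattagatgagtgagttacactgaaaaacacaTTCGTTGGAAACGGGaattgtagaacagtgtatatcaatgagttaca
minor satellite near Dpy19l2: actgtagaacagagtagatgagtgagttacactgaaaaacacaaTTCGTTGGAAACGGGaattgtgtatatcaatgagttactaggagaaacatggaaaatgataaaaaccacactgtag

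The next sequence is 1 unit, 234 bp long, of the major satellite array at a shared summit in an exon of the gene model Gm21738, chr14:19418699-19418932 on the plus strand. Capitals mark the 193 bases that are the same in the unit that follows.
major satellite unit in Gm21738: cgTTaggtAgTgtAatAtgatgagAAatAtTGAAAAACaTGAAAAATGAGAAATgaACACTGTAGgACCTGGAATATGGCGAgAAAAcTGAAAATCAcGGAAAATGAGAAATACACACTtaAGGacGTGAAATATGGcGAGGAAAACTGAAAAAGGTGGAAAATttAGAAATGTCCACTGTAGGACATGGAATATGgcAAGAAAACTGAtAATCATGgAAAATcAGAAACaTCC

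Repeats of GGAAT, in capitals, are shown for 2 shared summits and 1 goat-only summit. The first shared window is chr17:4626271-4626390 in intergenic sequence, and the second is chr17:56199987-56200106 in an intron of Dpp9, a dipeptidyl peptidase gene. The goat-only window is chr1:44951202-44951321, also intergenic. All 3 are printed on the minus strand.
shared GGAAT repeat on chromosome 17: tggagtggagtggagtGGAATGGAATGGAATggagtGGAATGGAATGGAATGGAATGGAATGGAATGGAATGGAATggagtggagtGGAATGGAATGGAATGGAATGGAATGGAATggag
shared GGAAT repeat in Dpp9: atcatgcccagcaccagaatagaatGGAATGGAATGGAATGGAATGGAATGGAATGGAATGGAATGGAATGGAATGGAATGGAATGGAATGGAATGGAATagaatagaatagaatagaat
goat-only GGAAT repeat on chromosome 1: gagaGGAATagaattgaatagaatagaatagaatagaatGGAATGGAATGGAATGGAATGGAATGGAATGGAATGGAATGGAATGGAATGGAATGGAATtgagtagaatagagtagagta

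The last pair show a goat-only and a rabbit-only summit in other sequence. The goat-only window, chr1:191396441-191396560 (plus strand), is in the promoter of Ppp2r5a, which encodes a regulatory subunit of the phosphatase PP2A, and its 21 CG dinucleotides are in capitals. The rabbit-only window, chr3:60045658-60045777 (plus strand), is a short repeat 5558 bp from Aadac, an arylacetamide deacetylase gene, and carries no capitals because no motif was searched in it.
goat-only promoter of Ppp2r5a: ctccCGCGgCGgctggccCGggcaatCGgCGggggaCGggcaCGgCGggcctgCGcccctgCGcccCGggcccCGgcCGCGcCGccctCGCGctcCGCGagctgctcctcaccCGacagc
rabbit-only short repeat near Aadac: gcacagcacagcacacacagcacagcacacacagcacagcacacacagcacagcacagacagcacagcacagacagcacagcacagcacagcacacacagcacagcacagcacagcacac

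Most summits of either list were shared. Of the goat Ig summits, 158 of 226 had a rabbit Ig summit within 500 bp (69.9%, exact Clopper-Pearson 95% interval 63.5 to 75.8%), and 68 were goat-only. Of the rabbit Ig summits, 153 of 224 had a goat Ig summit within 500 bp (68.3%, 61.8 to 74.3%), and 71 were rabbit-only. These and all later intervals cover counting error only, since summits that lie close together are not independent. As background, 0.00579% of the bases of the assembled chromosomes lie within 500 bp of a rabbit Ig summit and 0.00566% within 500 bp of a goat Ig summit. When summits of both lists within 500 bp of each other were chained, 284 loci remained, of which 147 held summits of both lists, 67 held goat Ig alone and 70 rabbit Ig alone. At most 6 summits fell in a locus, and 11 loci held 3 or more. Of these, 8 were on unplaced sequences, and the other 3 were near Tmem125 on chromosome 4, at Gm10722 on chromosome 9 and near Mrgprd on chromosome 7.

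Shared summits were mostly close to the same base. There were 152 pairs in which a goat and a rabbit summit were each other's nearest, with a median distance of 15 bp, and 121 of these pairs (79.6%) lay within 50 bp while 3 fell on the same base. Few summits lay near the limit of the rule. Between 200 and 500 bp from the other list were 15 goat and 9 rabbit summits, and between 500 and 1000 bp were 5 goat and 2 rabbit summits. The goat summit just inside the limit was 474 bp away, with a score of 5.52, and the goat summit just outside was 539 bp away, with a score of 13.5. For rabbit Ig these were at 322 bp, with a score of 8.93, and at 520 bp, with a score of 9.85. All 4 lay on unplaced sequences.

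The score in the lists ranks peaks within a library and was taken here as −log10 q. Shared summits scored higher than species-specific ones in both lists. In the goat Ig list, shared summits had a median score of 14.97 (quartiles 8.58 and 42.5, highest 354), and goat-only summits 4.61 (3.22 and 6.45, highest 32.4). In the rabbit Ig list, shared summits had a median of 17.99 (8.41 and 44.3, highest 377), and rabbit-only summits 4.48 (3.92 and 7.13, highest 40.7). The lower quartile of the shared summits lay above the upper quartile of the species-specific ones in each list, although the ranges overlapped, since shared scores went down to 2.55 and 2.12.

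**Figure D1:**
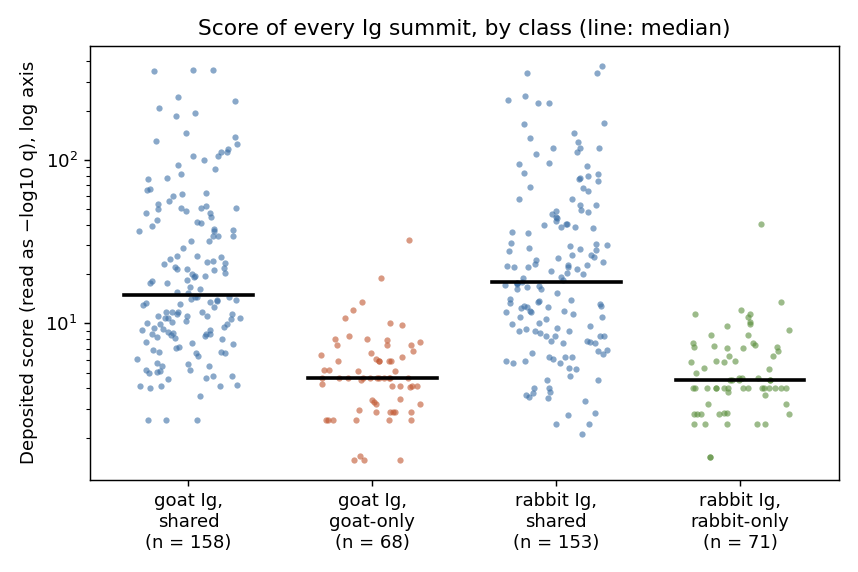
The deposited score (log axis) of each of the 450 Ig summits is plotted by list and class, with 1 point per summit and a black line at the median. Shared summits in blue have medians of 14.97 (goat Ig) and 17.99 (rabbit Ig), and the goat-only and rabbit-only summits gather lower, at medians of 4.61 and 4.48.

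The shared fraction was larger at higher scores. Each list was split into 4 groups at the quartiles of its scores. In the lowest group of goat Ig scores 16 of 57 summits were shared (28.1%, 17.0 to 41.5%), in the next groups 35 of 56 and 51 of 56, and in the highest group 56 of 57 (98.2%, 90.6 to 99.96%). The rabbit Ig list ran from 15 of 56 (26.8%, 15.8 to 40.3%) through 33 of 56 and 50 of 56 to 55 of 56 (98.2%, 90.4 to 99.95%). The 50 goat Ig summits with the highest scores were all shared. Of the 50 highest rabbit Ig summits 49 were shared, and 41 scored above every rabbit-only summit.

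Within pairs, both lists ranked the loci alike. Over the 152 pairs the scores had a Spearman rho of 0.922, given as a description, since pairs on the same array share their sequence. The goat score was higher in 70 pairs and the rabbit score in 82, and the median ratio of goat to rabbit score was 0.975 (range 0.355 to 5.27). The highest rabbit score, 377, was in an intron of the gene model Gm33838 at 35305402 of chromosome 9, where goat scored 354. Beside it at the top of the goat list stood a major satellite summit at 3109992 of chromosome 12 (354 in goat, 340 in rabbit) and the Chl1 minor satellite summit (351 in goat, 340 in rabbit). On the assembled chromosomes an intron of Mdga2, a gene for a membrane-anchored synaptic protein, came next, with 229 in goat and 248 in rabbit. The Dpy19l2 summit had 208 and 222, and a minor satellite summit 53046 bp from Gm23950 on chromosome 4 had 193 in goat and 223 in rabbit. In each of these 6 pairs an Input summit lay 3 to 70 bp away.

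**Figure D2:**
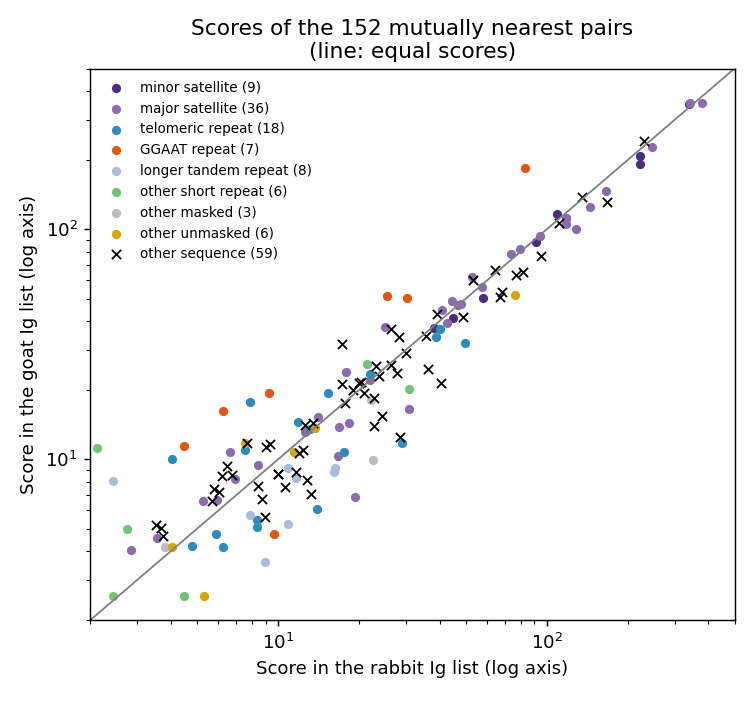
Scores of the 152 mutually nearest pairs are plotted, rabbit Ig on the horizontal and goat Ig on the vertical axis (both log axes), coloured by the sequence at the goat summit, with a line at equal scores. Minor satellite pairs follow the line, with ratios of 0.865 to 1.07, whereas 6 of the 7 GGAAT pairs lie above it.

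Both lists had many summits outside the assembled chromosomes. Unplaced or unlocalised sequences held 67 of 226 goat Ig summits and 63 of 224 rabbit Ig summits, over the same number of sequences, 9 in each list. These were nearly all shared, 64 of 67 in goat (95.5%, 87.5 to 99.1%) and 59 of 63 in rabbit (93.7%, 84.5 to 98.2%). On the assembled chromosomes 94 of 159 goat (59.1%, 51.1 to 66.8%) and 94 of 161 rabbit summits (58.4%, 50.4 to 66.1%) were shared. chrUn_JH584304 alone held 21 goat and 18 rabbit summits between positions 60660 and 114094, and its densest locus, 70388 to 71347, had 3 of each. chrUn_GL456383 and chrUn_GL456390 held 10 and 9 goat summits and 9 rabbit summits each, all shared. The highest scores on these sequences were 243 in goat and 231 in rabbit. Their sequence was not analysed here, so they are absent from the counts of repeats and genes.

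Across the assembled chromosomes the lists differed most on chromosomes 9 and 18. Chromosome 9 held 29 goat summits, 13 of them goat-only, and 17 rabbit summits, 2 of them rabbit-only. Chromosome 18 held 2 goat summits, both shared, and 8 rabbit summits, of which 6 were rabbit-only. On the other chromosomes the lists differed by at most 5 summits, the largest gap being on chromosome 3 with 5 goat and 10 rabbit summits. Most of the goat-only summits of chromosome 9 lay in a single stretch at its start.

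**Figure D3:**
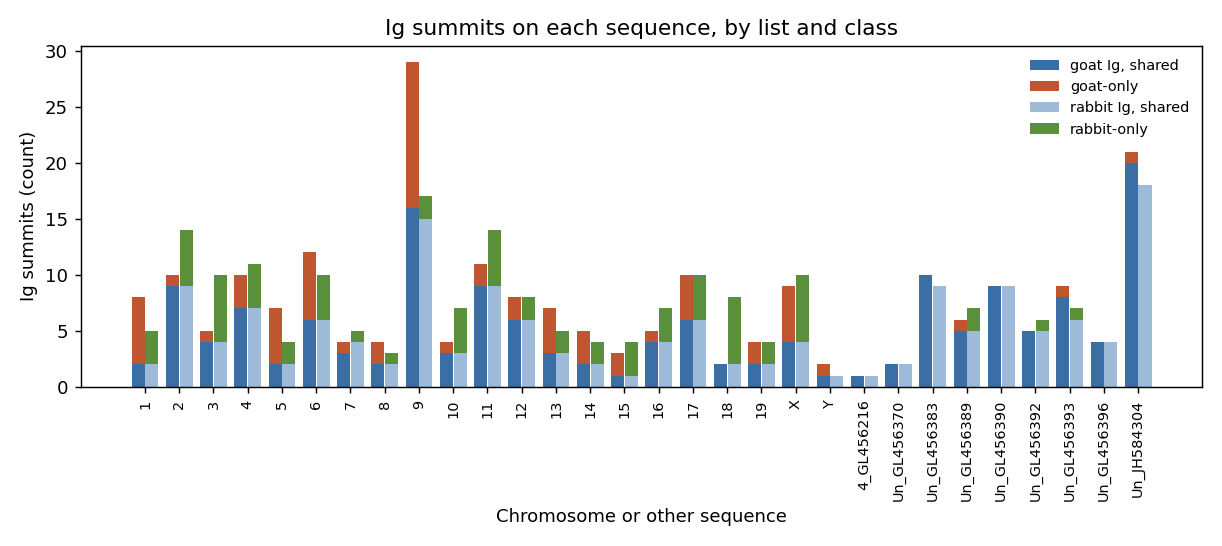
Counts of Ig summits are drawn for each chromosome and other sequence, with goat Ig as the left and rabbit Ig as the right bar, shared summits at the base and species-specific summits on top. Chromosome 9 has 13 goat-only summits, chromosome 18 has 6 rabbit-only summits, and the unplaced sequences are almost wholly blue.

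That stretch, chr9:3000521-3038007, is an array of major satellite with gene models such as Gm10722, Gm11168, Gm10717 and Gm10715 laid over it. It held 22 goat and 12 rabbit summits. Of the goat summits 12 were shared and 10 goat-only, and of the rabbit summits 11 were shared and 1 was rabbit-only. The 10 goat-only summits scored 4.07 to 32.4 (median 6.29) and lay 668 to 4809 bp from the nearest rabbit summit. An Input summit was within 500 bp of 8 of them, a PU.1 summit of 1 and a BATF summit of 0. For the 12 shared goat summits these counts were 11, 5 and 6. The stretch itself held 24 Input, 6 PU.1 and 6 BATF summits, so an Input summit was close to much of it. The counts to be had from placement alone were not computed. The rabbit-only summit there, at 3000521 in the promoter of Gm10722, had the highest score of all rabbit-only summits, 40.7. The highest goat-only summit, 32.4, was only 762 bp further on, at 3001283 in an exon of the same gene model. The highest scoring species-specific summits of both lists were thus neighbours in 1 array, both just beyond the 500-bp limit of the rule. Without the array, 71.6% of goat and 67.0% of rabbit summits were shared.

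The 200 bp around each summit on the assembled chromosomes were sorted into families of sequence. A window was called telomeric with at least 4 copies of TTAGGG on either strand, and GGAAT repeat with at least 6 copies of GGAAT. Satellite windows shared at least 10% of their 12-base words with windows of a period close to 234 bp (major) or with windows that hold the core of the CENP-B box (minor). The rest were sorted into other short repeats, with over 50% of bases equal to the base 1 to 6 bp before, longer tandem repeats, other masked sequence, with over 50% of bases masked, and unmasked sequence. Each window was given to a single family, the more specific rules first, and motifs were counted on both strands. Those defining windows were themselves at Ig summits, 33 for the major and 8 for the minor satellite, of which 23 and 8 were shared. The split of satellite windows between shared and species-specific summits is therefore in part set by this choice and is a description of these lists. Of 5281 reference windows spaced evenly along the chromosomes, 0 met the telomeric, the GGAAT or either satellite rule, which allows a share of up to 0.0568%, and 0 held the CENP-B core.

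Most shared summits lay in these 4 families. They took 71 of 94 shared goat windows (75.5%, 65.6 to 83.8%) and 72 of 94 shared rabbit windows (76.6%, 66.7 to 84.7%). The species-specific summits were poorer in them, with 22 of 65 goat-only (33.8%, 22.6 to 46.6%) and 11 of 67 rabbit-only windows (16.4%, 8.49 to 27.5%). Because the satellites were defined from these lists, the other 2 families were also counted alone. Telomeric and GGAAT repeats took 25 of 94 shared goat (26.6%, 18.01 to 36.7%) and 11 of 65 goat-only windows (16.9%, 8.76 to 28.3%), and 26 of 94 shared rabbit (27.7%, 18.9 to 37.8%) and 8 of 67 rabbit-only windows (11.9%, 5.30 to 22.2%), with overlapping intervals in both lists. Of the windows outside the satellites they took 25 of 48 shared and 11 of 54 goat-only ones (52.1 and 20.4%), and 26 of 48 shared and 8 of 64 rabbit-only ones (54.2 and 12.5%). These denominators were set by the same satellite definition. It left 48 of 94 shared windows in each list, against 54 of 65 goat-only and 64 of 67 rabbit-only ones. The wider gap is therefore in part set by that definition too and is no independent check. The most frequent sequence at species-specific summits was other masked repeat, with 18 goat-only (27.7%, 17.3 to 40.2%) and 27 rabbit-only windows (40.3%, 28.5 to 53.0%). Of the evenly spaced reference windows 27.6% fell in it, so the goat-only share was at this background. The 3 shared goat and 2 shared rabbit windows (3.19 and 2.13%) were below it. Other short repeats came next, with 14 goat-only and 22 rabbit-only windows (21.5 and 32.8%), against 2.84% of the reference windows. They are not particular to Ig summits, since they took 45.7% of PU.1, 45.3% of BATF and 12.3% of Input windows. Other masked repeat took 36.4, 19.9 and 82.7% of these, in that order.

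**Figure D4:**
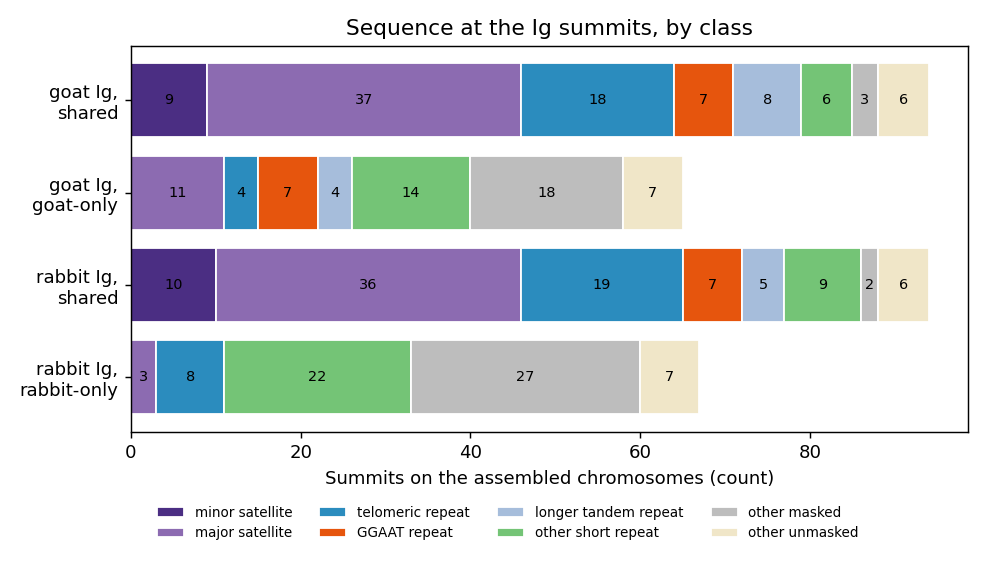
The number of summits on the assembled chromosomes is stacked by the sequence at the summit, with 1 bar per list and class. Minor satellite appears only in the bars of shared summits (9 and 10), the GGAAT repeat in 3 bars but not among rabbit-only summits, and the goat-only and rabbit-only bars hold 14 and 22 other short repeats and 18 and 27 other masked windows.

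The minor satellite summits had the highest median scores of these families and were all shared, 9 in goat and 10 in rabbit, as were all 8 windows from which this family was defined. Their median scores were 112 in goat (37.3 to 351) and 99.98 in rabbit (22.2 to 340). The CENP-B core was present in 4 goat and 4 rabbit windows, at the same loci: the Chl1 intron, the Dpy19l2 neighbourhood and 2 sites at Gm10801 on chromosome 2. The summits at Gm10801 scored 112 and 88.0 in goat and 118 and 91.1 in rabbit. Input summits were within 500 bp of 9 of 9 goat and 9 of 10 rabbit windows. The exception was on chromosome Y at 4161288, with a score of 22.2 in rabbit and the nearest Input summit 87508 bp away.

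Major satellite was the largest group, with 48 goat and 39 rabbit summits, of which 37 and 36 were shared. Shared major satellite summits had median scores of 37.7 in goat and 35.8 in rabbit. The 11 goat-only ones had a median of 6.56, and the 3 rabbit-only ones scored 9.14, 11.0 and 40.7. Outside the chromosome 9 array, shared major satellite summits stood at the promoters of Oasl1, an interferon-induced gene of the oligoadenylate synthetase family, and Ank1, which encodes erythrocyte ankyrin. At Ank1 the scores were 106 in goat and 118 in rabbit, and at Oasl1 37.7 and 25.05. Other such summits lay in introns of Litaf (48.9 and 44.3), Cdk5rap2 (93.6 and 94.3) and Spag17 (39.1 and 42.4), goat first. Input summits lay 1 to 31 bp from these 5.

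Telomeric repeat was found at 22 goat summits, 18 of them shared, and at 27 rabbit summits, 19 of them shared. Every one of these had an Input, a PU.1 and a BATF summit within 500 bp. The reference holds 1614 loci with at least 4 copies of TTAGGG in 200 bp. A goat Ig summit lay at 22 of these loci, a rabbit Ig summit at 26, and both at 18. Input summits were at 89, PU.1 at 104 and BATF at 81, and these included all 30 loci with an Ig summit. Only a small part of the TTAGGG loci was thus listed in any library, and the Ig loci were a subset of those listed for the other 3. Shared windows were richer in the repeat, with a median of 27.5 copies in goat and 32 in rabbit, than goat-only (18) and rabbit-only windows (17), although the ranges overlapped.

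Telomeric summits lay both near chromosome ends and far inside. Within 250000 bp of the end of a reference chromosome lay 10 of 18 shared goat and 11 of 19 shared rabbit telomeric summits, and 0 of 4 goat-only and 1 of 8 rabbit-only ones. In goat the intervals were 30.8 to 78.5% and 0 to 60.2%, and in rabbit 33.5 to 79.7% and 0.316 to 52.7%, so they overlapped in both lists. The distances of these 22 summits to the end were 100114 to 150215 bp, on 11 of the 21 chromosomes. They run to the last position of the reference and include any unread bases (N) there. The distance to the last known base was not computed and may be much shorter. The others were interstitial, such as the summit in Flt1, which encodes a VEGF receptor (36.9 in goat, 40.0 in rabbit), in Lama1, a laminin gene (11.8 and 29.0), and in Ppp1r9a, which encodes an actin-binding scaffold (19.4 and 15.4). The highest telomeric score of the rabbit list, 49.6, was at 93577104 of chromosome 12, where goat scored 32.1.

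The GGAAT repeat lay under more goat than rabbit summits, and none of these had an Input summit within 500 bp. There were 14 goat summits, 7 shared and 7 goat-only (8.81% of 159, 4.90 to 14.3%), and 7 rabbit summits, all shared (4.35% of 161, 1.77 to 8.75%). No rabbit-only summit fell in it (0 of 67, upper limit of the interval 5.36%), against 7 of 65 goat-only summits (10.8%, 4.44 to 20.9%). In both comparisons the goat and rabbit intervals overlapped. Of the 345 reference loci with at least 6 copies of GGAAT in 200 bp, 14 had a goat and 7 a rabbit Ig summit, and the 7 were among the 14. Input summits were at 4 of the 345 loci, and at 0 of the 14 (0 to 23.2%). PU.1 summits were at 11 loci and BATF summits at 9, of which 4 in each case were among the 14. Distances to a locus were taken from its ends, so that 1 PU.1 summit 533 bp from a goat summit, in Ano2, is counted at its locus.

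At the 7 shared GGAAT loci the goat score was higher in 6, with a median ratio of 2.10 (0.492 to 2.59), and over all 152 pairs this ratio was 0.975. On chromosome 17 at 4626331 the goat score was 185 and the rabbit score 83.0. At 132463761 of chromosome 6, in the promoter of the gene model Gm45063, they were 51.1 and 25.6, and in Dpp9 50.2 and 30.3. In Myo7a, the gene of an unconventional myosin of the inner ear, the scores were 16.2 and 6.24. The locus at 60402798 of chromosome 2 had 19.4 and 9.25, and that at 25100172 of chromosome 11 had 11.4 and 4.48. The exception was at 10186417 of chromosome 6, with 4.76 in goat and 9.69 in rabbit. The nearest Input summits were 24191 to 116305 bp from these 7 goat summits.

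The 3 highest of these loci also had PU.1 and BATF summits, 3 to 34 bp from the goat summit for PU.1 and 1 to 12 bp for BATF. Chromosome 2 had a BATF summit 4 bp away and no PU.1 summit within 500 bp, and the remaining 3 shared loci had neither. The 7 goat-only GGAAT summits scored 6.07 to 19.0 and had no Input, PU.1 or BATF summit within 500 bp. The highest was at 44951262 of chromosome 1 (19.0), followed by an intron of the gene model D130079A08Rik on chromosome 14 (12.2) and a site 2347 bp from Prl3c1, a gene of the prolactin family (10.8). Another lay in an intron of Ano2, a chloride channel gene (9.72). GGAAT windows thus took 3 of the 5 highest goat-only summits on the assembled chromosomes and none of the rabbit-only ones.

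Longer tandem repeats, with a period of 7 to 400 bp, lay under 12 goat summits, 8 shared and 4 goat-only, and under 5 rabbit summits, all shared. At 3 of the 8 shared loci the rabbit window fell among other short repeats instead, with 50.5 to 57.7% of bases equal to the base 1 to 6 bp before, against 46.9 to 50% in the goat window, on either side of the 50% limit. Over the 8 pairs at these windows the goat score was higher in 1, with a median ratio of 0.637 (0.402 to 3.31), the opposite side from the GGAAT pairs. At Tmem267, which encodes a transmembrane protein, a 31-bp repeat in an intron scored 8.82 in goat and 16.1 in rabbit. At 13654775 of chromosome 17, a 23-bp repeat scored 8.33 in goat and 11.7 in rabbit. Unmasked sequence outside these families lay under 13 summits of each list, 6 shared and 7 species-specific. The 6 shared unmasked loci all had an Input summit within 500 bp, and of the 7 species-specific ones 1 in each list had. The highest was in an intron of Cldn34d, a gene of the claudin family, with 52.0 in goat and 76.2 in rabbit. The promoter of Gm23935, 78.5% GC in the goat window, had 13.7 in both. Windows similar to ribosomal DNA numbered 0 in both lists, although the reference words did not cover the whole ribosomal unit.

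Input summits were near most shared and fewer species-specific Ig summits. Within 500 bp of an Input summit lay 142 of 158 shared goat (89.9%, 84.1 to 94.1%) and 137 of 153 shared rabbit summits (89.5%, 83.6 to 93.9%). Among goat-only summits 28 of 68 had an Input summit nearby (41.2%, 29.4 to 53.8%), and among rabbit-only summits 46 of 71 (64.8%, 52.5 to 75.8%). Of the bases of the assembled chromosomes 0.896% lie within 500 bp of an Input summit, so every class was above this background. The goat-only and rabbit-only intervals overlapped slightly. In the chromosome 9 array an Input summit was near 8 of 10 goat-only summits and the 1 rabbit-only summit. The array thus raised the goat-only share. Neither share was recomputed without it, so the overlap may rest on that 1 locus. Without the GGAAT windows the goat-only share was 28 of 61 (45.9%, 33.1 to 59.2%).

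Seen from the other side, Ig summits near Input were mostly shared. Of the 170 goat summits with an Input summit within 500 bp, 142 were shared (83.5%), and of the 56 without, 16 (28.6%, 17.3 to 42.2%). In rabbit these were 137 of 183 (74.9%) and 16 of 41 (39.0%, 24.2 to 55.5%). The median score of shared goat summits was 14.97 with and 15.01 without Input nearby, and that of shared rabbit summits 19.1 and 13.8. The 40 goat-only summits with no Input nearby had the same median as the 28 with Input, 4.61, whereas the 25 rabbit-only summits with no Input nearby scored at most 7.54 and the 46 with Input at most 40.7.

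PU.1 and BATF summits followed the Ig classes in the same order. PU.1 summits were within 500 bp of 125 shared goat (79.1%), 25 goat-only (36.8%), 121 shared rabbit (79.1%) and 46 rabbit-only summits (64.8%). For BATF the counts were 128 (81.0%), 24 (35.3%), 125 (81.7%) and 44 (62.0%). The bases within 500 bp of a PU.1 or BATF summit are 0.324% and 0.145% of the assembled chromosomes. The goat-only intervals, 25.4 to 49.3% for PU.1 and 24.1 to 47.8% for BATF, lay below the rabbit-only ones, 52.5 to 75.8% and 49.7 to 73.2%. Of the goat-only summits, 10 lay in the chromosome 9 array, where 1 had a PU.1 and 0 a BATF summit within 500 bp. The array held 1 rabbit-only summit, which was near both. The array thus lowered both goat-only shares. The shares and intervals were not recomputed without it, so the gap, and the separation of the intervals, may rest on that 1 locus. Away from Input the classes were closer: 8 of 40 goat-only and 7 of 25 rabbit-only summits had a PU.1 summit, and 9 of each a BATF summit.

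**Figure D5:**
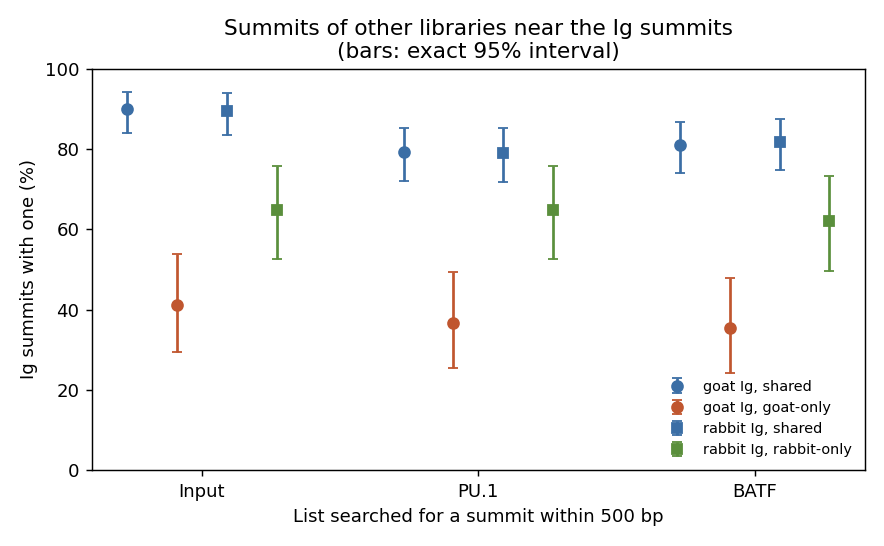
The share of Ig summits in each class that have an Input, PU.1 or BATF summit within 500 bp is plotted in percent with exact 95% intervals, circles for goat Ig and squares for rabbit Ig. Shared summits of both lists sit between 79.1 and 89.9%, rabbit-only summits between 62.0 and 64.8%, and goat-only summits between 35.3 and 41.2%.

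At the 50% limit, repeat masking set the Ig summits apart from the genome but hardly from each other. Over 50% of the 200-bp window was masked at 77 of 94 shared goat (81.9%, 72.6 to 89.1%), 51 of 65 goat-only (78.5%, 66.5 to 87.7%), 78 of 94 shared rabbit (83.0%, 73.8 to 89.9%) and 59 of 67 rabbit-only windows (88.1%, 77.8 to 94.7%). All 4 intervals overlapped. Of the evenly spaced reference windows 30.4% were masked to that extent. Fully masked windows made up 30.9% of shared goat and 44.6% of goat-only windows. In rabbit they made up 30.9% of shared (21.7 to 41.2%) and 52.2% of rabbit-only windows (39.7 to 64.6%), with overlapping intervals. Simple repeats, with over 50% of bases equal to the base 1 to 6 bp before, made up 31 shared goat (33.0%), 23 goat-only (35.4%), 35 shared rabbit (37.2%) and 30 rabbit-only windows (44.8%), against 2.9% of the reference windows.

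The number of matches in the reference separated the classes at some limits only. At least 1000 matches in the reference, with 90% identity over 80% of the window, were found for 11 of 65 goat-only (16.9%, 8.76 to 28.3%) and 19 of 67 rabbit-only windows (28.4%, 18.01 to 40.7%). Among shared windows there was 1 of 94 in each list (1.06%, 0.0269 to 5.79%). These goat-only windows matched 12697 to 59926 places and the rabbit-only ones 1323 to 49818. Their scores were low, 2.55 to 5.92 in goat and 2.44 to 11.5 in rabbit. Input was nearby at 6 of the 11 and 13 of the 19. With at least 500 matches, a limit that takes in many telomeric windows, the counts were 16 of 94 shared goat (17.0%, 10.1 to 26.2%) and 11 of 65 goat-only windows (16.9%), and 19 of 94 shared rabbit (20.2%, 12.6 to 29.8%) and 23 of 67 rabbit-only windows (34.3%, 23.2 to 46.9%), and the intervals overlapped in both lists.

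In gene terms, most Ig summits were intergenic or intronic. Intergenic sequence held 76 of 159 goat and 84 of 161 rabbit summits on the assembled chromosomes, introns 54 and 58, exons 10 and 9, and promoters, taken as 1000 bp upstream of a transcription start, 19 and 10. Promoters make up 3.21% of the bases. The genome shares of intergenic, intronic and exonic sequence were not computed, so those counts are a description and show no preference. By class, promoters held 8 of 94 shared summits in each list (8.51%, 3.75 to 16.1%), 11 of 65 goat-only (16.9%, 8.76 to 28.3%) and 2 of 67 rabbit-only summits (2.99%, 0.364 to 10.4%). The last 2 intervals overlapped.

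The goat-only promoter summits were of 2 kinds. At protein-coding genes, 8 goat-only summits lay in the chromosome 9 array, before the satellite gene models Gm10721, Gm10719, Gm10717 and Gm17535, with scores of 4.07 to 7.65. The others were GC-rich promoters, among them those of Ppp2r5a, with a score of 3.47 and 84% GC, and Setd1a, a histone methyltransferase gene, with 4.61 and 84% GC. The nearest Input summits were 5516 and 36210 bp from these, in that order, and BATF summits were 120 and 15 bp away. A PU.1 summit was 230 bp from the Ppp2r5a summit and 60243 bp from that at Setd1a. Of 5281 evenly spaced reference windows of 120 bp, 0 held 20 or more CG dinucleotides. Rabbit-only summits included 1 at a protein-coding promoter, that of Gm10722 in the array, and 1 with 78.5% GC at the promoter of the gene model Gm13238, and another with 78% GC lay in an exon of Lamp1, which encodes a lysosomal membrane protein. Windows over 60% GC numbered 4 of 65 goat-only and 4 of 67 rabbit-only.

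On the assembled chromosomes, the highest rabbit-only summits outside satellite were of other kinds. A telomeric repeat in an intron of Slc14a2, a urea transporter gene on chromosome 18, scored 13.6, the short repeat near Aadac 11.5, and a telomeric repeat in an intron of Abhd6, which encodes a lipid hydrolase, 11.5. There they followed the Gm10722 summit, and the fifth was a major satellite summit 61693 bp from Gm15065 on chromosome X (11.0). For the 3 named first the nearest goat summits were 3470126 to 12404175 bp away, and Input summits 7 to 14 bp. Goat-only summits of comparable score on these chromosomes, 10.1 to 19.0, were GGAAT repeats and a short repeat 9040 bp from the gene model Gm43154, of which the last alone had an Input summit nearby, at 14 bp.

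Few genes of any kind had an Ig summit nearby. Of 21938 protein-coding genes, 0.401% had a goat and 0.383% a rabbit Ig summit within 10000 bp. For 22 genes of T helper cell differentiation, among them Il9, Il21, Il4, Irf8, Irf4, Spi1, Batf, Etv6, Stat6, Gata3, Tbx21 and Foxp3, 0 had a goat or rabbit Ig summit within that distance, which is near this background, and the closest goat and rabbit summits were 977967 and 977982 bp away. Input summits lay within 10000 bp of 7 of these genes, PU.1 summits of 4 and BATF summits of 4, against 25.3, 19.5 and 12.3% of all protein-coding genes. The lists hold only places past a threshold of the peak caller, so this sets no upper limit on Ig reads at these genes.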

How the data were processed

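Per the labels, the submitters' processing notes name Bowtie2 and mm10. The authors' methods add a MACS conversion and FindPeaks on Nebula. The authors deposited 1 list of summits per library, each with a score taken as −log10 q from the MACS2-style names and from a lowest score above −log10 of 0.05. The control and threshold given to the caller, peak widths and read totals are not given in the sources used here, and either choice could change which summits are listed. How reads with several matches were kept could change summits in repeats. The methods name a NextSeq device and the labels a MiSeq device.

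Distances between summits, GENCODE M21 gene positions and 200-bp windows of the soft-masked GRCm38.p6 reference were computed with Python 3.11.15, pysam 0.24.0, scipy 1.17.1, pandas 2.3.3 and numpy 2.4.6, and matches in the reference with BLAST 2.17.0. Sequences are from RefSeq's copy of that assembly. Names of unplaced sequences could not be paired with it, so their sequence was not analysed here. Intervals are exact Clopper-Pearson 95% intervals. The functions were tested on simulated data. Genes were named at the 5 highest scores of each class, at protein-coding promoters, at loci of 3 or more summits and from a list of 22 T helper genes; others were chosen after their values were seen. Members, lists and tests were chosen with earlier results of these data known, and the thresholds of the repeat families were set after seeing the windows. Some genes and sequences that these rules select are not reported here.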

Additional observations from a re-analysis of the deposited data

How the results depend on the processing

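No paired analysis was possible because each library has a single sample and no result comes from a test. Each of 18 shares was recomputed under its alternatives, 62 in all, of which 18 were added after seeing the data. In 34 of them the share stayed within the 95% interval of the reported value, among them 10 of the added ones, including every one that left out GGAAT windows or the chromosome 9 array, and every alternative for shared summits near Input. The other 28 follow, with the cause not tested. At 100 bp, 60.6% of goat and 61.2% of rabbit summits were shared, and on the assembled chromosomes alone 59.1% and 58.4%. On the same base 1.33% of goat and 1.34% of rabbit summits were shared. Among summits scoring above the median of their list, 94.7% of goat and 93.8% of rabbit summits were shared. That left only 6 goat-only summits, with Input near 16.7%, and 7 rabbit-only summits, with Input near 100%, and on assembled chromosomes masked shares of 100% for both. At 100 bp, Input was near 49.4% of rabbit-only summits. With 500-bp windows the masked share was 71.3% for shared goat, 71.3% for shared rabbit and 76.1% for rabbit-only summits. With over 90% masked required it was 45.7% for shared goat, 58.5% for goat-only, 45.7% for shared rabbit and 61.2% for rabbit-only summits. Counting telomeric and GGAAT repeats alone gave 26.6% of shared goat, 16.9% of goat-only and 27.7% of shared rabbit windows. Over windows outside the satellites, whose number depends on the satellite definition, these were 52.1, 20.4 and 54.2%. At 500 matches in place of 1000, 17.0% of shared goat and 20.2% of shared rabbit windows qualified. The distance rule thus left the order of shared above species-specific summits near Input in place at 100 and 1000 bp, whereas above the median score Input was near 91.4% of shared rabbit summits, below the rabbit-only value. With 1 library per condition and unknown depth, a summit missing from a list may lie just under its threshold.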

Other observations

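The same families appeared in the lists of the other libraries on the assembled chromosomes, as values with no comparison of depth. GGAAT windows lay under 3 of 24973 Input, 6 of 8848 PU.1 and 6 of 3982 BATF summits, with highest scores of 16.4, 56.0 and 75.2. Minor satellite windows lay under 10 Input, 13 PU.1 and 10 BATF summits, with median scores of 107, 113 and 125. Major satellite windows numbered 52, 40 and 40, with median scores of 11.8, 44.1 and 46.0, and telomeric windows 74, 96 and 80, with medians of 20.7, 15.4 and 18.3. Windows similar to ribosomal DNA numbered 3, 16 and 17 there and 0 in each Ig list.

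At GGAAT loci the span from the first to the last counted copy was compared. Its median was 104 bp over 14 loci with an Ig summit, against 198 bp over 331 loci without. Scattered copies widen this span, so it is no measure of the length of an unbroken repeat. The same span at telomeric loci showed the opposite order, with 279 bp over 30 loci with an Ig summit against 190 bp over 1584 loci without.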
